A study of Schizosaccharomyces pombe with 6 samples.

Results

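The 6 genes described here are the fission yeast histone variant genes pht1 and cnp1 and the histone gene regulators ams2, hip1, hip3 and slm9. They were found by matching their names and synonyms in the reference gene table to the authors' table of transcription units, and each matched 1 of the 5484 units. Newly made RNA was collected from Schizosaccharomyces pombe as Spt5, an elongation factor that travels with RNA polymerase II, was removed. All libraries came from the single strain ASP167 (mating type h-, ura4-D18). Its spt5 gene was placed behind the thiamine-repressible promoter Pnmt81 (marker hphMX6) and fused to V5 and the auxin degron IAA17 (marker kanMX6). At ade6+ it carried 2 TIR1 genes, from rice (OsTIR1) and Arabidopsis (AtTIR1-2NLS-9myc), each fused to skp1 and driven by Padh15, with natMX6. TIR1 joins an auxin-like compound to the degron, so that the tagged protein is broken down.

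Cells grew in the minimal medium EMM. Thiamine and the auxin analogue 1-naphthaleneacetic acid (NAA) went in at 0 h, and RNA was labelled with 5 mM 4-thiouracil for 10 min at 0 h, 2.5 h or 4.5 h. Each of these 3 groups had 2 libraries that the series design calls biological replicates. All groups share the tagged spt5 allele and the TIR1 genes, and no untreated time course was analysed here, so the effects of losing Spt5, of either compound and of elapsed time cannot be told apart. The libraries held between 11525663 and 35673601 counts, and the 0 h libraries were the deepest. The targeted gene spt5 was at 1045 and 721 CPM (counts scaled to library size) at 0 h. It was at 121 and 108 CPM at 2.5 h and at 98.2 and 92.3 at 4.5 h, so its RNA was lower in both later groups. RNA counts do not give the amount of Spt5 protein. Counts give each unit's share of the labelled RNA, with no spike-in named in the sources used here, so every change below is relative to the other units. In bulk cultures, fewer cells making an RNA and less of it per cell cannot be told apart.

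Nucleosomes are built from the core histones H2A, H2B, H3 and H4, whose genes are transcribed mainly in S phase. Variants replace core histones at particular places. Pht1 is H2A.Z, which the SWR1 complex deposits near the start of genes, and Cnp1 is CENP-A, the H3 variant that marks centromeres. Ams2 is a GATA-type factor that binds a conserved box, with the core AACCCT, in histone gene promoters and drives their S-phase transcription; it is also needed for normal loading of CENP-A. Hip1 and Slm9 are related to the human histone chaperone HIRA, and Hip3 is a further subunit of the same complex, which places H3 and H4 outside replication and keeps histone genes repressed outside S phase. Hip4 is the remaining subunit of this complex and is given beside the others where it helps.

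The histone gene box, which was not found in the promoters of these 6 genes, is shown first, because the box is what Ams2 is known to bind. Sequences were read from the RefSeq genome ASM294v3, 5′ to 3′ on the strand of the gene named first. Motifs were searched on both strands, from 250 bases before each annotated gene start to 50 bases after it. The core AACCCT was present in 501 of 5144 promoters (9.74%), and 2 copies in direct succession were present in 20 (0.389%). All 7 core histone genes whose promoters are described here had the doubled copy, and 0 of the 6 variant and regulator genes had an AACCCT. With the core in 9.74% of all promoters, a count of 0 among 6 genes marks nothing particular to them. These 7 histone genes hold 4 boxes, because 3 boxes lie between divergent pairs and are upstream sequence of both genes. In these stretches from chrI:4053359-4053394, chrI:4699640-4699675, chrII:1365048-1365083 and chrII:3529615-3529650, capitals mark the doubled AACCCT.
hta2, minus strand: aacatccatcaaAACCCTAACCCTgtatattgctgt
hht1 and hhf1, plus strand: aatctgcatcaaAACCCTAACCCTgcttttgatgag
hhf2 and hht2, minus strand: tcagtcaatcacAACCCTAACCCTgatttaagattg
hhf3 and hht3, plus strand: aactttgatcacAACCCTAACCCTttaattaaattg

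A second motif, the MluI box ACGCGT, is bound by MBF, the factor that drives G1/S genes. It was present in 166 of the 5144 promoters (3.23%), and in 2 of the 6 genes, cnp1 and ams2. In cnp1 it lay 18 to 13 bases before the annotated start, and in ams2 140 to 135 bases before it. The cnp1 stretch is chrII:3538474-3538503 on the plus strand, and capitals mark the MluI box here and in the ams2 promoter. The ams2 promoter is printed whole, chrIII:2000909-2001158 on the plus strand, because an antisense unit described below ends in it. The pht1 promoter, chrII:1503445-1503694 on the minus strand, is printed as the promoter of a variant gene that rose and holds neither motif. A match is a run of letters, not a binding site, and nothing about either factor follows from a missing match.
cnp1: atgctagtcgcgACGCGTcaaacccctgtc
ams2: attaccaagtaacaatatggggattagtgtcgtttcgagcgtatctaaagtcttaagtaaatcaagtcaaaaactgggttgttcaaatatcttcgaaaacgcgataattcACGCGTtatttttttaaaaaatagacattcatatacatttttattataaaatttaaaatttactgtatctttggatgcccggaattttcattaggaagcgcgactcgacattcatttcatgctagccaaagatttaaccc
pht1: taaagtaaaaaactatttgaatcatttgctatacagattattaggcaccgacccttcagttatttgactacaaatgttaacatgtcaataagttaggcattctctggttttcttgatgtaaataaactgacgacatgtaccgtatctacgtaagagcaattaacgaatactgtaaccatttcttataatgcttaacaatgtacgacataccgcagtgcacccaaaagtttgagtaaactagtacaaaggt

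**Figure D1:**
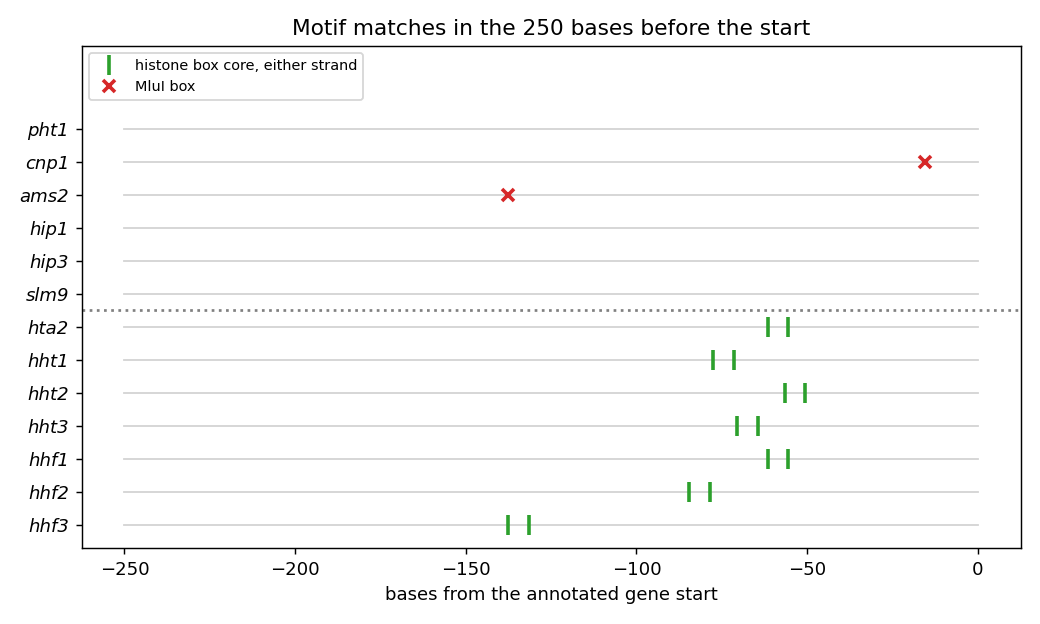
Positions of AACCCT (histone box core, green bars) and ACGCGT (MluI box, red crosses) in the 250 bases before the annotated start (horizontal axis, bases) of the 6 variant and regulator genes and 7 core histone genes (rows, parted by the dotted line). AACCCT appears in all 7 histone rows and in none of the 6 others, where cnp1 and ams2 hold an ACGCGT. Over the same 250 bases, AACCCT was present in 8.34% of all promoters.

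The 6 units lie on chromosome II, except ams2 on chromosome III, in the ASM294v2 coordinates of the deposited unit table. The pht1 unit (SPBC11B10.10c) spans 1502232 to 1503416 on the minus strand and the cnp1 unit (SPBC1105.17) 3538507 to 3539930 on the plus strand. The ams2 unit (SPCC290.04) spans 2001171 to 2004276 on the plus strand of chromosome III. The hip1 unit (SPBC31F10.13c) spans 3774250 to 3777408 and the hip3 unit (SPBC31F10.14c) 3777690 to 3783393, both on the minus strand. They form a tandem pair, with the end of hip3 281 bases upstream of hip1. The slm9 unit (SPBC15D4.03) spans 3015528 to 3018037 on the plus strand. RefSeq places the gene starts 3 to 66 bases from these unit starts.

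Levels of different genes were compared only per length, as CPM per kb of unit without introns. At 0 h, cnp1 was the lowest of the 6 at 20.4 ± 2.56 CPM per kb (SD, n = 2), followed by slm9 at 25.4 ± 1.11 and pht1 at 27.2 ± 3.07. The other 3 genes were higher, hip1 at 45.7 ± 1.97, ams2 at 50.7 ± 8.58 and hip3 at 54.4 ± 6.25 CPM per kb. The libraries of slm9 and pht1 overlapped, as did those of hip1 and ams2 and those of ams2 and hip3, so those neighbours were not separated. All 6 lay below the core histone genes, whose mean levels at 0 h ran from 113 CPM per kb for hht1 to 596 for htb1. At 4.5 h the order was slm9, cnp1, hip3, hip1, pht1 and ams2, at 21.7 ± 1.01, 26.1 ± 2.86, 41.9 ± 0.69, 53.8 ± 0.72, 61.6 ± 6.30 and 89.4 ± 10.3 CPM per kb. No libraries of neighbouring genes overlapped in that later order. The pht1 level moved from the lower 3 genes to the upper pair.

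**Figure D2:**
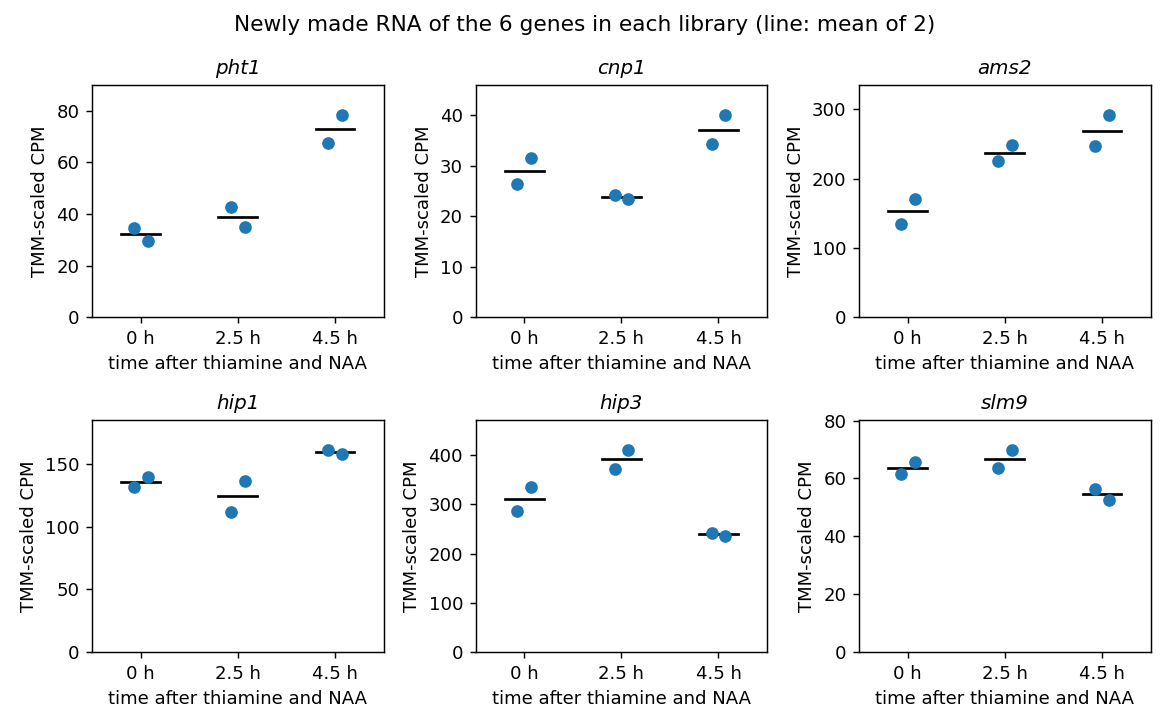
CPM of each of the 6 genes (vertical axes, from 0) in the 2 libraries of each time point (points), with the line at their mean. pht1 stands highest at 4.5 h, ams2 is higher at both later times, and hip3 is highest at 2.5 h and lowest at 4.5 h.

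pht1, the H2A.Z gene, had the largest rise of the 6. It was at 34.8 and 29.6 CPM at 0 h, 42.8 and 34.9 at 2.5 h, and 67.7 and 78.3 at 4.5 h. Both 4.5 h libraries lay above all the others, and the 2.5 h libraries lay just above those at 0 h, by less than the gap between the 2.5 h libraries. At 4.5 h the gene was 2.27-fold its 0 h level (log2 fold change 1.18 ± 0.18 SE, edgeR quasi-likelihood adjusted p = 0.0122, n = 2 per group). The step from 0 h to 2.5 h was 0.27 ± 0.18 on the log2 scale (edgeR adjusted p = 0.352) and that from 2.5 h to 4.5 h was 0.91 ± 0.18 (edgeR adjusted p = 0.0396).

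Relative to the genes of the histone it replaces, pht1 was lower at both later times. Its reads per kb were 4.53 and 4.75 per 100 of hta1 and hta2, the H2A genes, at 0 h. The values were 3.52 and 2.59 at 2.5 h, and 3.63 and 3.61 at 4.5 h, so both later groups lay below 0 h. This and the ratios below were chosen after the values were seen and carry no test. The call at 4.5 h against 0 h was lost without either 4.5 h library (edgeR adjusted p = 0.0719 without replicate 1 and 0.125 without replicate 2), in fits that called 108 and 48 units in all. The call at 4.5 h against 2.5 h was lost without any of the 4 libraries compared (edgeR adjusted p from 0.164 to 0.273), where 0 units in all were called.

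cnp1, the CENP-A gene, did not pass the test in any comparison. It was at 26.4 and 31.6 CPM at 0 h, 24.2 and 23.5 at 2.5 h, and 34.2 and 40.0 at 4.5 h. The 2.5 h libraries were the lowest and the 4.5 h libraries the highest, with no overlap between groups, but the steps were small. On the log2 scale the differences were -0.28 ± 0.18 SE at 2.5 h against 0 h (edgeR adjusted p = 0.323), 0.35 ± 0.18 at 4.5 h against 0 h (0.220) and 0.64 ± 0.18 at 4.5 h against 2.5 h (0.0725). Without 0 h replicate 1 the first of these was -0.51 and passed (edgeR adjusted p = 0.0429). Without either 0 h library the last passed as well, at 0.0129 in both fits, with 2020 and 2024 units in all called.

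Against the H3 genes hht1, hht2 and hht3 together, cnp1 reads per kb stood at 2.85 and 4.71 per 100 at 0 h. They stood at 1.78 and 1.58 at 2.5 h and at 1.83 and 1.77 at 4.5 h. The later libraries were close together and below both 0 h libraries, which differed from each other by more than the later groups differed from the lower one. A unit on the opposite strand, pth3, covers 818 bases (57.4%) of the cnp1 unit. Its log2 differences were -0.25, 0.28 and 0.53 in the same order of comparisons, none of which passed, and without a stated strand setting its reads and those of cnp1 cannot be told apart with certainty.

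ams2, the activator of histone genes, rose by 4.5 h. It was at 134 and 171 CPM at 0 h, 226 and 248 at 2.5 h, and 247 and 291 at 4.5 h. Both later groups lay above 0 h, and they overlapped each other. At 2.5 h the gene stood at 1.55-fold its 0 h level (log2 0.64 ± 0.18 SE), which did not pass (edgeR adjusted p = 0.0598). At 4.5 h it was 1.76-fold higher than at 0 h (log2 0.82 ± 0.18, edgeR adjusted p = 0.0302). Between 2.5 h and 4.5 h it differed by 0.18 ± 0.18 on the log2 scale (edgeR adjusted p = 0.543).

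The ams2 result is close to the threshold. At 4.5 h against 0 h the call was lost without any 2.5 h or 4.5 h library (edgeR adjusted p from 0.0825 to 0.239), with library totals in place of TMM scaling (0.0921) and with only the 2 groups in the fit (0.0816). The log2 value at 2.5 h was 0.81 without 0 h replicate 2 (edgeR adjusted p = 0.0055) and 0.36 without 0 h replicate 1 (0.080). The 0 h libraries themselves differed by 0.35 on the log2 scale, the widest gap between them among the 6 genes.

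The ams2 unit is overlapped by a long noncoding unit on the other strand, SPNCRNA.1252, which fell as ams2 rose. This unit spans chromosome III 2000928 to 2003831 on the minus strand and covers 2661 bases (85.7%) of ams2. It starts 445 bases before the end of the ams2 unit, beyond the coding end, and runs 243 bases past the ams2 start into the promoter printed above. It was at 63.8 and 77.4 CPM at 0 h, 35.4 and 42.7 at 2.5 h, and 12.8 and 8.50 at 4.5 h. The 3 groups did not overlap, and both 4.5 h libraries were far below the rest. The log2 fold change was -0.85 ± 0.24 SE at 2.5 h (edgeR adjusted p = 0.0579), -2.73 ± 0.26 at 4.5 h (0.0046), and -1.88 ± 0.25 from 2.5 h to 4.5 h (0.0203).

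For every 100 ams2 counts there were 47.5 and 45.3 SPNCRNA.1252 counts at 0 h, 15.7 and 17.2 at 2.5 h, and 5.17 and 2.92 at 4.5 h. The groups did not overlap, and the values were lower at each later time. Among the 749 noncoding units tested, SPNCRNA.1252 was the 6th lowest in log2 fold change at 4.5 h against 0 h. Of these units 197 rose and 36 fell at 4.5 h, with a median of 0.65, so a fall was the less common direction. The call of its fall from 2.5 h to 4.5 h was lost without any library of those times (edgeR adjusted p from 0.135 to 0.203), but the fall at 4.5 h against 0 h was called in every alternative fit run. Strand handling in the counting is not given in the sources used here, so sense reads counted to the antisense unit, or the reverse, cannot be told apart from its own, and a link between the opposite changes was not tested.

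**Figure D3:**
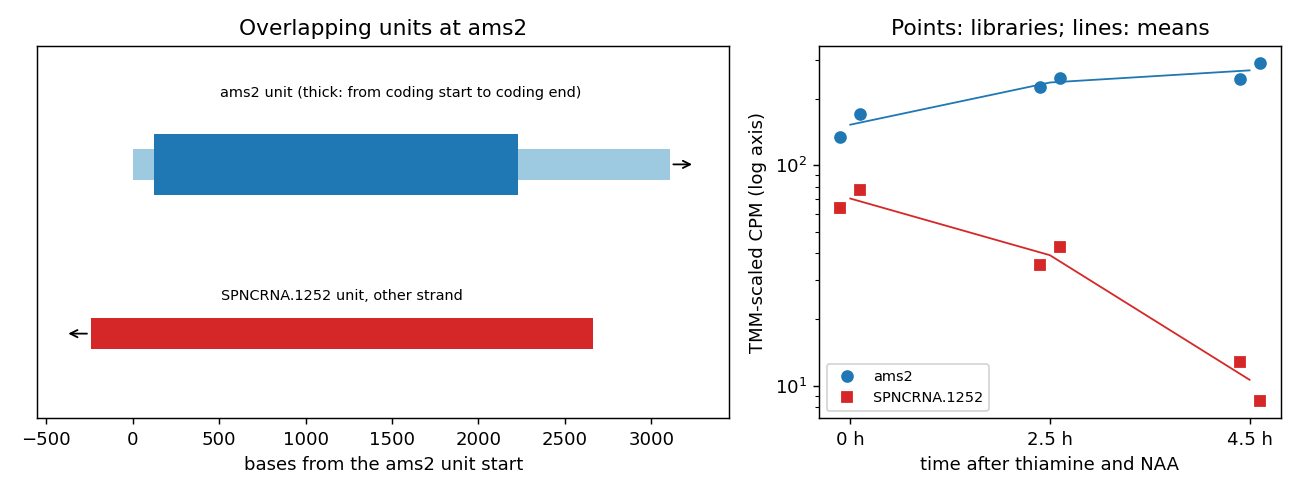
Left, the ams2 unit and the opposite-strand unit SPNCRNA.1252 in bases from the ams2 unit start, drawn to scale. Right, CPM of both units (log axis) by time, with points for libraries and lines for means: ams2 is higher at both later times, and SPNCRNA.1252 is down to 12.8 and 8.50 CPM at 4.5 h.

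hip1, which encodes one of the HIRA-like subunits, did not pass the test in any comparison. It was at 131 and 140 CPM at 0 h, 112 and 137 at 2.5 h, and 161 and 158 at 4.5 h. The 4.5 h libraries were the highest, and those at 0 h and 2.5 h overlapped. The log2 differences were -0.13 ± 0.15 SE at 2.5 h against 0 h (edgeR adjusted p = 0.611), 0.24 ± 0.15 at 4.5 h against 0 h (0.323) and 0.36 ± 0.15 at 4.5 h against 2.5 h (0.166).

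hip3, the neighbouring gene upstream, fell between the later times. It was at 285 and 336 CPM at 0 h, 372 and 410 at 2.5 h, and 242 and 236 at 4.5 h. The 2.5 h libraries were the highest and the 4.5 h libraries the lowest, with 0 h between them and no overlap. From 2.5 h to 4.5 h hip3 dropped to 0.611 of its level (log2 fold change -0.71 ± 0.15 SE, edgeR adjusted p = 0.0444). Against 0 h it stood at 0.33 ± 0.15 at 2.5 h (edgeR adjusted p = 0.192) and -0.38 ± 0.15 at 4.5 h (0.142). The call between 2.5 h and 4.5 h was lost with DESeq2 size factors (-0.72, edgeR adjusted p = 0.0573) and with library totals (-0.78, 0.0759), and without any of the 4 libraries compared (0.168 to 0.301), where 0 units in all were called. With 0 h replicate 2 left out hip3 was at 0.45 at 2.5 h (edgeR adjusted p = 0.0269), and with 0 h replicate 1 left out it was at -0.60 at 4.5 h (0.0082).

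The 2 tandem neighbours therefore changed places. In reads per kb, hip3 stood at 1.13 and 1.25 times hip1 at 0 h, 1.73 and 1.56 times at 2.5 h, and 0.779 and 0.776 times at 4.5 h. The groups did not overlap, and hip3 was above hip1 in the 4 earlier libraries and below it in both at 4.5 h. With 2 libraries against 2, no exact permutation test of such a ratio can pass 0.05.

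slm9, which encodes the other HIRA-like subunit, had the smallest differences from 0 h among the 6 genes in the main fit. At 4.5 h hip1 was about as near to its 0 h level. It was nearer than slm9 with DESeq2 (log2 0.17 beside -0.29 for slm9) and with library totals (0.14 beside -0.32). slm9 was at 61.7 and 65.6 CPM at 0 h, 63.5 and 69.8 at 2.5 h, and 56.3 and 52.7 at 4.5 h. The 0 h and 2.5 h libraries overlapped, and the 4.5 h libraries were the lowest. No difference passed the test, with log2 values of 0.07 ± 0.14 SE at 2.5 h (edgeR adjusted p = 0.799), -0.22 ± 0.14 at 4.5 h (0.328) and -0.29 ± 0.15 between them (0.231). hip4, outside the 6 genes, had values of -0.27, -0.11 and 0.16, none of which passed.

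Taking the 4 subunit genes of the HIRA complex together in reads per kb, the share of hip3 was 34.1% and 36.5% at 0 h, 43.7% and 41.7% at 2.5 h, and 29.0% and 29.3% at 4.5 h. The share of hip1 moved the other way, from 30.2% and 29.3% to 25.3% and 26.8% and then to 37.2% and 37.8%. slm9 remained between 14.9% and 17.0% in all 6 libraries, and hip4 between 14.0% and 18.9%. The widest ranges of these shares were those of the tandem pair.

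**Figure D4:**
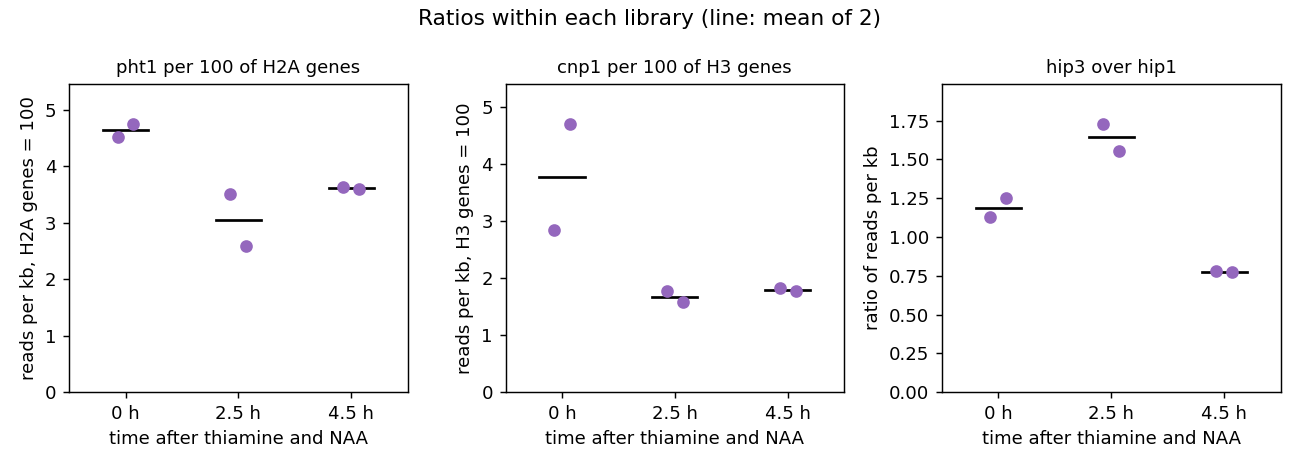
Ratios within each library by time (points for libraries, line at the mean, axes from 0). The ratios of pht1 to the H2A genes and of cnp1 to the H3 genes are lower at both later times than at 0 h. The ratio of hip3 to hip1 is highest at 2.5 h and below 1 at 4.5 h.

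Counted over the 6 genes, 0 passed at 2.5 h against 0 h, where 17.4% of the 5208 units tested were called. For that count, 1 of the 6 had an unadjusted p under 0.05 (edgeR) and DESeq2 called 0. Without 0 h replicate 1 the count was 1, and without 0 h replicate 2 it was 2. At 4.5 h against 0 h, 2 of the 6 rose and 0 fell, beside 17.9% of all units called (10.1% higher and 7.8% lower). At 4.5 h against 2.5 h, 1 rose and 1 fell, beside 10.3% of all units called (3.34% higher and 6.91% lower). Both splits turn on the scaling. At 4.5 h against 0 h, 56.4% of the called units were higher with TMM, 46.9% with library totals and 49.0% with size factors from DESeq2. Between the later times 32.6% were higher with TMM and 12.8% with library totals. Between 0 and 4 of the 6 genes were called when libraries were left out one at a time.

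The libraries of 4 of the 6 genes did not overlap at 2.5 h against 0 h, beside 56.7% of all units. At 4.5 h against 0 h it was 6 of 6, beside 61.6% of all units, and at 4.5 h against 2.5 h 5 of 6, beside 73.7%. The median log2 difference of the 6 genes was 0.17, 0.29 and 0.27 in these comparisons, beside 0.01, 0.02 and -0.01 over all units. With 6 genes, counts of this size describe these genes and mark nothing particular to them. The 0 h libraries entered both of the comparisons against 0 h, and the 2.5 h and 4.5 h libraries entered 2 comparisons each.

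The core histone genes, the targets of Ams2 and of the HIRA complex, were taken for comparison. At 2.5 h against 0 h, 6 of 9 rose and 0 fell (12.3% of all units rose and 5.11% fell), with values between 0.43 and 0.91 and a median of 0.84. At 4.5 h all 9 rose, from 1.05 for hhf2 to 1.86 for htb1, with a median of 1.36, where 10.1% of all units rose. hta1 was at 1.72, hta2 at 1.28, hht1 at 1.29, hht2 at 1.36, hht3 at 1.41, hhf1 at 1.21 and hhf3 at 1.64. Between 2.5 h and 4.5 h, htb1 (1.02) and hhf3 (0.80) rose and 0 fell (3.34% of all units rose and 6.91% fell). Copies of H3 and of H4 are nearly identical and the treatment of reads with several matches is not given in the sources used here, so the split of reads among copies is uncertain. At 4.5 h the log2 fold change of pht1 lay within the range of these 9 genes, and those of cnp1, ams2, hip1, hip3 and slm9 lay below their lowest. At 4.5 h the count of core histone genes was 6 without either 2.5 h library or with only the 2 groups in the fit, 2 without 4.5 h replicate 1 and 0 without 4.5 h replicate 2. The 2.5 h count was 0 without any single 2.5 h or 4.5 h library and with only the 2 groups in the fit, and between the later times it was 0 without any library of those times and 8 without either 0 h library.

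**Figure D5:**
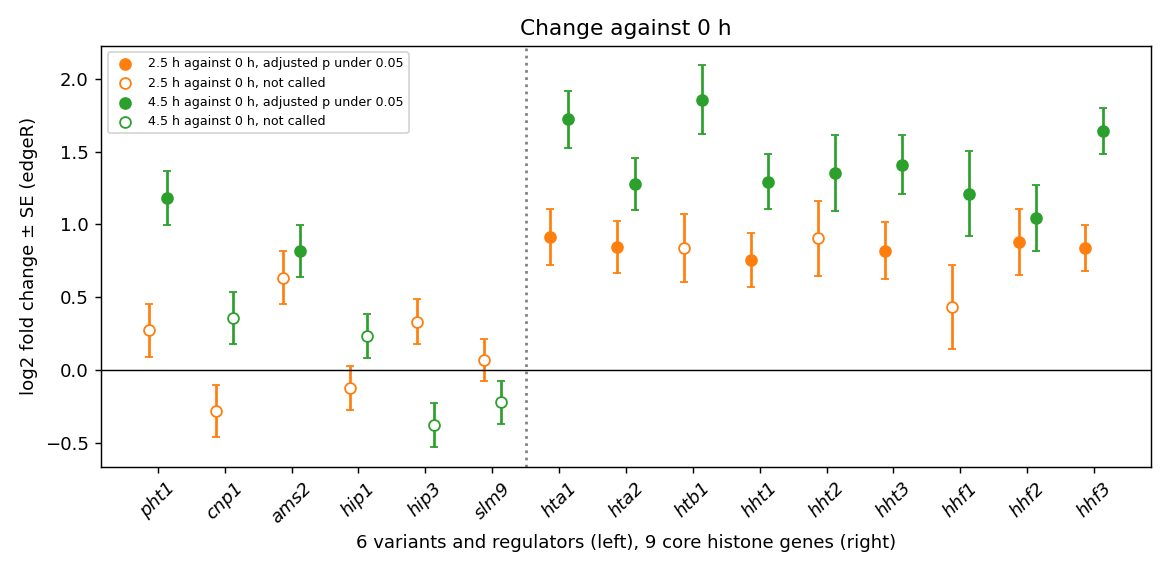
Log2 fold change against 0 h with its SE (vertical axis) at 2.5 h and 4.5 h for the 6 variant and regulator genes (left of the dotted line) and the 9 core histone genes (right). All 9 histone genes lie between 1.05 and 1.86 at 4.5 h, and of the 6 others pht1 alone reaches that range.

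Genes that load or evict the variants were described from lists of known subunits. None of the 13 genes for H2A.Z deposition passed in any comparison, with medians of -0.08, -0.03 and 0.16. Over all units 17.4%, 17.9% and 10.3% were called in these comparisons. Of the 13 genes, 3, 1 and 3 had an unadjusted edgeR p under 0.05, and DESeq2 called 0, 1 and 1. The ATPase gene swr1 was at 0.38 at 4.5 h against 0 h (edgeR adjusted p = 0.182), and vps71, another subunit, was at -1.05 (0.0522). By edgeR without 0 h replicate 1, 1 of the 13 was called at 2.5 h, 1 at 4.5 h and 3 between the later times. Without 0 h replicate 2 the counts were 5, 6 and 3.

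Among 14 genes for CENP-A loading and the inner kinetochore, 3 rose and 0 fell at 2.5 h, with a median of 0.14, where 12.3% of all units rose and 5.11% fell. With a library left out that count was 8 without 0 h replicate 1, 0 without 2.5 h replicate 2, 2 without 2.5 h replicate 1 and 1 without either 4.5 h library, and it was 1 with only the 2 groups in the fit. They were eic2, which encodes a partner of the Mis18 loading complex (log2 fold change 2.26, edgeR adjusted p = 0.0066), the kinetochore gene sim4 (1.38, 0.0271) and the unit holding the kinetochore gene mal2 with 3 further gene IDs (0.76, 0.0264). Between 2.5 h and 4.5 h, eic2 (-2.29) and sim4 (-1.57) fell and 0 rose, a count that was 0 without any library of those times and 6 without either 0 h library. Against 0 h, 0 passed at 4.5 h, with 1 unadjusted edgeR p under 0.05, 0 calls by DESeq2 and 3 by edgeR without either 0 h library. eic2 was at 5.5 and 5.1 CPM at 0 h, 22.8 and 27.9 at 2.5 h, and 6.3 and 4.1 at 4.5 h, so both 2.5 h libraries stood above all others. In these same comparisons cnp1 itself was at -0.28 and 0.64, neither of which passed. The Mis18 complex gene mis19 was at 0.72 at 4.5 h against 0 h (edgeR adjusted p = 0.198) and the unit holding the inner kinetochore gene mis6 with a further gene ID at -0.39 (0.141). eic2, sim4 and mal2 were named after their values were seen. Over all units 3.34% rose and 6.91% fell between 2.5 h and 4.5 h, and 17.9% were called at 4.5 h against 0 h.

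Of 11 genes for other histone chaperones, 0 rose and 2 fell at 2.5 h, with a median of -0.21, where 12.3% of all units rose and 5.11% fell. The 2 were pcf3 (-0.81, edgeR adjusted p = 0.0155) and nap2 (-0.77, edgeR adjusted p = 0.0405). pcf3 encodes a subunit of CAF-1, which places H3 and H4 at replication forks, and nap2 a NAP1-like chaperone that was named after its values were seen. At 4.5 h pcf3 fell (-0.86, edgeR adjusted p = 0.0145) and was the only one of the 11 called by edgeR, beside 7.8% of all units called lower. A second CAF-1 gene, pcf2, was at -0.56 (0.0673), and DESeq2 called 2 of the 11 lower, pcf2 included (DESeq2 adjusted p = 0.0204). Both edgeR counts were 0 without any single 2.5 h or 4.5 h library, and they were 4 and 3 without 0 h replicate 1 and 4 and 2 without 0 h replicate 2. Against 0 h, hip1, hip3 and slm9 of the HIRA complex gave no call at either time. Between 2.5 h and 4.5 h, 0 of the 11 passed (3 unadjusted edgeR p under 0.05, 1 call by DESeq2, 4 by edgeR without either 0 h library).

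The stability of Ams2 protein is set by the kinase Hsk1-Dfp1 and a ubiquitin ligase. Of 6 genes for these and for other GATA factors, 1 rose at 4.5 h, dfp1 (0.72, edgeR adjusted p = 0.021), and 0 fell. Over all units 10.1% rose and 7.8% fell in that comparison. From 2.5 h to 4.5 h dfp1 also rose (0.72, edgeR adjusted p = 0.0357), where 3.34% of all units rose. At 2.5 h 0 of the 6 passed (1 unadjusted edgeR p under 0.05, 0 calls by DESeq2). fep1, a GATA-type repressor of iron uptake genes, was at -0.36 at 4.5 h (edgeR adjusted p = 0.214). Both dfp1 calls were lost without any single 2.5 h or 4.5 h library, and 3 of the 6 genes were called in each of these comparisons without either 0 h library. The ligase gene skp1 is among the 6, and the strain also carries skp1 fused to its TIR1 genes. Reads from those fusions may be counted to skp1. RNA levels do not give the amount of Ams2 protein.

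Among 12 G1/S genes that MBF controls, 1 rose at 2.5 h, the S-phase cyclin gene cig2 (1.09, edgeR adjusted p = 0.0294). At 4.5 h 1 rose, yox1, a corepressor of MBF (1.13, edgeR adjusted p = 0.0324), and 0 fell at either time. Over all units 12.3% rose and 5.11% fell at 2.5 h, and 10.1% rose and 7.8% fell at 4.5 h. The medians of the 12 genes were 0.28 and 0.35. Between 2.5 h and 4.5 h 0 of the 12 passed (3 unadjusted edgeR p under 0.05, 0 calls by DESeq2). Both calls were lost without any single 2.5 h or 4.5 h library. The replication licensing gene cdc18 was at 0.70 at 4.5 h (edgeR adjusted p = 0.103). cnp1 and ams2, whose promoters hold an MluI box, stood at 0.35 and 0.82 at 4.5 h, and only ams2 passed. Of the 12 G1/S genes themselves, 5 held an ACGCGT in the stretch searched, so many genes listed under MBF lack this exact match. The part that a change in cell cycle stage has in these values was not tested. cig2 was named after its values were seen.

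Genes whose profile was nearest to each of the 6 were found by Euclidean distance between centred log2 CPM over the 6 libraries, among 3871 units with a gene symbol. Nearest to pht1 were utp24, which acts in making small ribosomal subunits, at a distance of 0.222, and the protein phosphatase gene sds21 at 0.252. Both rose at 4.5 h, by 1.30 and 1.11 on the log2 scale. These units and those below were picked on the same 6 libraries. A change like that of the member therefore follows from the choice and lends it no weight. Nearest to ams2 were mug35 at 0.184 and res2, which encodes a DNA-binding subunit of MBF, at 0.193. mug35 rose at 4.5 h (0.85, edgeR adjusted p = 0.0275), and res2 was at 0.69 (0.0673).

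Nearest to cnp1 were the kinase gene cmk2 at 0.0759 and the unit of lsm8 and csl4 at 0.150, and nearest to hip1 were rpc34, an RNA polymerase III subunit gene, at 0.0715 and utp4 at 0.133. hip3 was nearest to rga9 at 0.144 and nad1 at 0.157, of which rga9 fell from 2.5 h to 4.5 h (-0.68, edgeR adjusted p = 0.0492). slm9 was nearest to ypp1 at 0.0697 and stt4, both linked to phosphatidylinositol 4-kinase, at 0.114. The distances rest on 6 libraries in 3 groups and describe likeness of profile alone.

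The authors' deposited table gives kinetic estimates per unit with no time unit in its header, so they are used as ranks among coding units. They are values of the unit, tied to no library or time point described here. In the authors' deposited table all 6 genes had a half-life below the midpoint of 4457 coding units, from above 18.6% of them for ams2 to above 49.9% for hip3. In the authors' deposited table pht1, slm9, cnp1 and hip1 were above 39.2%, 34.6%, 31.5% and 28.0% of coding units in half-life. By the synthesis time in the authors' deposited table, ams2 was above 86.4% of coding units, cnp1 above 81.4%, slm9 above 62.7%, hip3 above 58.2%, pht1 above 42.5% and hip1 above 22.4%. The authors' deposited table also gives ams2 and cnp1 long stretches after the coding end, 879 and 707 bases, longer than in 95.0% and 92.5% of coding units. The authors' deposited table gives hip3 a long stretch before the coding start, 723 bases, and slm9 a short one of 10 bases.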

How the data were processed

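Newly made RNA was measured by 4-thiouracil labelling and sequencing (Ovation Universal RNA-Seq libraries, per the labels' protocols). The deposited values are raw counts, 1 whole number per transcription unit and library. Per the submitters' processing notes, STAR 2.3.0, SAMtools and ASM294v2 were used; how reads were counted (tool, strand, multiple matches) is not given in the sources used here. Half-life, splicing time and synthesis time in the authors' deposited unit table are estimates without a unit, read here as a score for ranking only; positions and lengths come from the same table.

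Counts were fitted with edgeR 4.0.16 (R 4.3.3): filterByExpr by group, TMM scaling, robust quasi-likelihood F tests with all 6 libraries and time point as the only term (3 residual degrees of freedom), two-sided, Benjamini-Hochberg adjustment over 5208 units, threshold 0.05; 276 units were left out as too low. All 6 genes were tested. The shallowest library held 11525663 counts, where 3 counts equal 0.26 CPM. Both libraries of each time differed by more than counting noise, with a chi-square per unit of 905 at 0 h, 80.9 at 2.5 h and 23.7 at 4.5 h. This measure grows with depth, and the 0 h libraries were the deepest, at 29268534 and 35673601 counts beside 13598877 and 14559076 at 4.5 h. The gap in the measure was wider than the gap in depth. The main fit shares its estimate of the spread over the 3 groups and makes no allowance for a wider spread at 0 h. With only the 2 groups in the fit, 420 and 363 units were called at 2.5 h and 4.5 h against 0 h, beside 908 and 932. Alternatives were DESeq2 1.42.0, its size factors, library totals, no filter and a filter of 50 counts in 4 libraries, only the 2 groups compared, replicate number as a block, and each library left out.

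The 6 genes and all lists were chosen with earlier results of these data known. Named genes were the 6, every core histone gene, spt5, units overlapping a member, the 3 list members with the largest called change at 4.5 h against 0 h (or the 2 with the lowest p where fewer than 2 were called), and the 2 nearest profiles of each member. Promoters were cut from RefSeq ASM294v3 at annotated mRNA starts; 5028 of 5062 gene IDs matched and each overlapped its unit. The fit was also run on simulated counts in which all libraries shared the same spread for a unit. That run cannot show how the fit behaves where groups differ in spread. One GATA factor name, gaf2, is a synonym of fep1 and was counted once. One core histone promoter is not reported here.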

Additional observations from a re-analysis of the deposited data

Results flagged for a closer look

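The 2 later time points differed from each other for 12 of the named units, whose change from 2.5 h to 4.5 h had an adjusted p under 0.05 in the edgeR fit. Over all 5208 units tested, 10.3% were called in this comparison. Units near in profile were picked by these same libraries, and eic2 and sim4 were named after their values were seen. The count of 12 therefore does not measure how common such a change was. On the log2 scale pht1 was higher at 4.5 h than at 2.5 h by 0.91 and hip3 was at -0.71. Of the core histone genes, htb1 differed by 1.02 and hhf3 by 0.80. dfp1, for the regulatory subunit of the kinase that acts on Ams2, differed by 0.72, and the ams2 antisense unit SPNCRNA.1252 was at -1.88. Among units with a profile near one of the 6 genes, utp24 differed by 1.02, sds21 by 0.78, the unit of lsm8 and csl4 by 0.73 and rga9 by -0.68. The CENP-A loading genes eic2 and sim4 were at -2.29 and -1.57, back near their 0 h levels. All these comparisons share the 2.5 h and 4.5 h libraries. Groups of 2 libraries are too small for a check on single outlying libraries.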

How the results depend on the processing

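Over all units, 908, 932 and 534 were called at 2.5 h against 0 h, 4.5 h against 0 h and 4.5 h against 2.5 h. With only the 2 groups compared in the fit the counts were 420, 363 and 2009. For the later times, DESeq2 called 920 and library totals 328. No scaling moved the median of all units by 0.1 or more on the log2 scale. Without the 50 bases after the start, AACCCT was in 429 promoters and ACGCGT in 135; the doubled AACCCT count (20) and the counts for the 6 genes stayed the same.

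pht1 passed at 4.5 h against 0 h and against 2.5 h in every alternative that kept all libraries of the groups compared, with log2 values from 1.09 to 1.21 and from 0.84 to 0.92. ams2 at 4.5 h against 0 h was 0.71 with library totals and 0.82 with only 2 groups, and no longer passed. hip3 at 4.5 h against 2.5 h no longer passed under library totals (-0.78) or size factors from DESeq2 (-0.72). cnp1 at 4.5 h against 2.5 h was 0.63 and passed with only 2 groups. The causes were not tested.

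Replicates of different times share a number, but nothing in the labels ties them to a shared culture. Deviations of same-numbered libraries correlated at 0.46 between 0 h and 2.5 h, 0.21 between 0 h and 4.5 h and 0.10 between the later times; with 2 numbers this does not show pairing. With the replicate block 977, 1072 and 589 units were called, and ams2 at 2.5 h passed at 0.64 (edgeR adjusted p = 0.0385), so that 1 of the 6 genes was called there. Under the block 1 SWR1 gene was called in each comparison with 4.5 h, 1 chaperone gene at 4.5 h against 2.5 h, 3 MBF genes at both later times against 0 h, and mis19 was at 0.0088 at 4.5 h against 2.5 h.

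Of the 6 genes, 1 was called at 4.5 h against 0 h with library totals and with only 2 groups, and 1 at 4.5 h against 2.5 h with either library totals or size factors from DESeq2. With only 2 groups at 2.5 h, 0 core histone, 0 chaperone, 0 MBF and 1 CENP-A gene were called, and the stricter filter left 1 chaperone gene. For 4.5 h against 0 h, 1 SWR1 gene was called with DESeq2, with its size factors and with library totals, 2 chaperone genes with DESeq2, 0 GATA genes with library totals, and 0 GATA and 0 MBF genes with only 2 groups. Between the later times only 2 groups gave 8 core histone, 3 SWR1, 6 CENP-A, 4 chaperone, 3 GATA and 3 MBF genes. There DESeq2 gave 1 SWR1 and 1 chaperone gene, its size factors 1 core histone and 1 chaperone gene, library totals 0 core histone and 0 GATA genes, and the stricter filter 1 core histone gene. Values near 0 that changed sign without passing were dfp1 (0.035) and stt4 (0.026) at 2.5 h with the stricter filter, nap2 at 4.5 h (-0.044 with DESeq2 and with its size factors, -0.069 with library totals) and mug35 at 4.5 h against 2.5 h with library totals (-0.018).

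With each library left out in turn, and the lone library of a group assumed to vary like the others, 1 to 2215, 48 to 2186 and 0 to 2024 units were called. The 6 genes gave 0 to 2, 0 to 3 and 0 to 4 calls, the core histones 0 to 8, 0 to 9 and 0 to 8, SWR1 0 to 5, 0 to 6 and 0 to 3, CENP-A 0 to 8, 0 to 3 and 0 to 6, chaperones 0 to 4, 0 to 3 and 0 to 4, GATA 0 to 3 in each, and MBF 0 to 4, 0 to 4 and 0 to 3. At 2.5 h pht1 ran from 0.11 to 0.40, cnp1 from -0.51 to -0.16, ams2 from 0.36 to 0.81, hip1 from -0.28 to 0.0054, hip3 from 0.11 to 0.45 and slm9 from -0.085 to 0.13. By 4.5 h against 0 h pht1 ran from 1.07 to 1.28, cnp1 from 0.12 to 0.50, ams2 from 0.55 to 1.01, hip1 from 0.085 to 0.29, hip3 from -0.60 to -0.25 and slm9 from -0.37 to -0.17. Between the later times pht1 ran from 0.77 to 1.07, cnp1 from 0.53 to 0.75, hip1 from 0.23 to 0.52 and hip3 from -0.77 to -0.64. Of other named units, those that changed sign at 2.5 h were dfp1 (-0.16 to 0.063), tma20 (-0.63 to 0.43), nad1 (-0.037 to 0.32), ypp1 (-0.050 to 0.20) and stt4 (-0.12 to 0.062). For 4.5 h against 0 h they were tma20 (-0.32 to 0.73), eic2 (-0.38 to 0.26) and nap2 (-0.082 to 0.073), and at 4.5 h against 2.5 h hhf2 (-0.020 to 0.36), mis19 (-0.25 to 0.26), cdc18 (-0.24 to 0.20), mug35 (-0.047 to 0.15) and res2 (-0.027 to 0.19).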

Other observations

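Beyond the core histone genes, 11 other promoters of the 5144 held 2 copies of AACCCT in direct succession. Of these 11 genes 2 rose and 0 fell at 4.5 h against 0 h, where 10.1% of all units rose and 7.8% fell. The 2 were the Hsp70 gene ssa1 (log2 fold change 1.25, edgeR adjusted p = 0.0169) and tbp1, the gene of the TATA-binding protein (0.80, edgeR adjusted p = 0.0209). The median log2 fold change of the 11 was 0.61, and 9 of 9 core histone genes rose. At 2.5 h 1 of the 11 rose, again tbp1 (0.64), where 12.3% of all units rose. The 11 genes were chosen by the letters of their promoters after the histone genes had been seen to share the doubled copy.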
